A study of Mus musculus with 2 samples.

Results

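Transcripts of 6 genes of the interleukin-1 system were followed in single immune cells from mouse lungs carrying melanoma metastases. They were chosen by name, as 6 of the 55357 features in the deposited matrices, and all 6 had UMIs (unique molecular identifiers, each standing for 1 captured RNA molecule) in both libraries. Il1b and Il1a encode the cytokines interleukin-1 beta and interleukin-1 alpha, and Il18 encodes interleukin-18. Il1rn encodes the secreted receptor antagonist, Il1r2 the decoy receptor, and Nlrp3 the sensor protein of an inflammasome. Their UMIs were read across neutrophils, monocytes, macrophages and dendritic cells that were gated by UMIs of other genes, and between the tumour genotypes.

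The study title concerns S-nitrosylation of the transcription factor IRF7 in melanoma and anti-tumour immunity. B16F10 is a mouse melanoma line, and it was given to C57 mice, the host strain of both groups. In the first group the B16F10 cells carried the IRF7-C435A mutant, in which a cysteine is changed to alanine. In the second group they carried wild-type IRF7. Lung metastasis tissue of both was digested with collagenases, and live CD45-positive cells, that is leukocytes, were sorted and sequenced by 3′ single-cell RNA-seq. The genotype belongs to the implanted tumour cells, and the labels name no change to the host leukocytes that are described here. How many mice went into a library, how old they were and how long they carried the tumours are not stated in the sources used here. There was 1 library per group, so no difference between the groups has a replicate check and no p-value is given. Counts from 3′ ends also cannot check a point mutation. Throughout, the C435A tumour library is named first and the WT tumour library second.

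Interleukin-1 beta, interleukin-1 alpha and interleukin-18 are alarm signals of innate immune cells. Interleukin-1 beta and interleukin-18 are made as inactive precursors that caspase-1 cuts once an inflammasome, such as that built on NLRP3, has assembled, so a transcript level does not report how much active cytokine was released. Interleukin-1 alpha and interleukin-1 beta signal through the receptor IL1R1 with its partner IL1RAP, while the antagonist encoded by Il1rn occupies that receptor and the decoy encoded by Il1r2 captures the ligands without signalling. In myeloid cells Il1b and Nlrp3 are classic targets of NF-kB, and alveolar macrophages are the resident phagocytes of the air spaces.

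After filters, 9427 and 9199 cells were kept, with 50269416 and 46523362 UMIs and medians of 3200.0 and 2684.0 UMIs per cell. The tissue label names melanoma cells, but Ptprc, the gene for CD45, had a UMI in 91.3% and 88.4% of kept cells, and 62 and 130 cells fell in the melanoma gate. A cell entered a gate with UMIs of at least 3 of the 8 markers of a class, none of them among the 6 genes. The myeloid gates held 1686 and 1646 cells in 10 classes, which are named after their marker genes since no protein was measured. Neutrophils were split by the granule genes Camp, Ngp and Ltf, transcribed while the cells are still maturing, into granule-rich cells with at least 2 such UMIs and granule-poor cells. The libraries shared 24 cell barcodes. Levels are the UMIs of a gene scaled to counts per 1000000 UMIs of the class (CPM) with exact 95% Poisson intervals, shares of cells have exact Clopper-Pearson intervals, and both cover counting error only, not variation between mice.

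Il1a and Il1b are neighbours in the genome, and the other genes lie apart. In GRCm38 the gene bodies are Il1b at chr2:129364570-129371139 on the minus strand and Il1a at chr2:129299610-129309972 on the same strand, with 54597 bases between them. Il1rn lies at chr2:24336853-24351494, Il1r2 at chr1:40074079-40125231, Il18 at chr9:50554827-50581840 and Nlrp3 at chr11:59541568-59566956, all on the plus strand. GENCODE M21 places Il1bos antisense to Il1b, Gm14023 opposite Il1a, Gm16894 antisense to Il1r2 with Gm37347 on its own strand, and Bco2 and Tex12 opposite Il18. No gene overlaps Il1rn or Nlrp3. How strand was set in the counting is not stated in the sources used, so reads of these overlapping partners may not have been told apart.

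The promoters of the 3 cytokine genes are shown because these genes differed in which cells held them, Il1b in neutrophils and Il1a and Il18 in alveolar macrophages. RefSeq promoter windows on GRCm38.p6 were found for 6 of 6 genes, 9 windows in all, since Il1rn has 3 and Nlrp3 has 2. The 250 bases before the annotated start are printed 5′ to 3′ on the strand of the gene, from chr2:129371140-129371389 (minus) for Il1b, chr2:129309973-129310222 (minus) for Il1a and chr9:50554450-50554699 (plus) for Il18. Capitals mark the TATA box letters TATAAA, searched on both strands, so that TTTATA is the match on the opposite strand.
Il1b: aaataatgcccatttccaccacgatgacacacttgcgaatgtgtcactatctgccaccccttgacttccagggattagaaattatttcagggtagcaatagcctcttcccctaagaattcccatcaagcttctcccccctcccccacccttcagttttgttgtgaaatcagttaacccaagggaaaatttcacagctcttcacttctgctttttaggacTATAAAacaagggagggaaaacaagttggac
Il1a: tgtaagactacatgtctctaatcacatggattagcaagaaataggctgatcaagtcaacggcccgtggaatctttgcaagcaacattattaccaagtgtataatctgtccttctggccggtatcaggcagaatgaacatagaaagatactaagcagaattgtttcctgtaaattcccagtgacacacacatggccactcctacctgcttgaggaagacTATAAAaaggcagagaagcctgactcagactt
Il18: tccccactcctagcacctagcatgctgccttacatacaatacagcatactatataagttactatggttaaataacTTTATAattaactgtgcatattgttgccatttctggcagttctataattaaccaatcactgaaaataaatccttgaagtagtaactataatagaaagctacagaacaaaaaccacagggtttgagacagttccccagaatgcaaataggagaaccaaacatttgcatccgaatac
The neighbouring genes Il1b and Il1a both hold TATAAA close to the start, with its first base 31 and 32 bases before it. Among 32851 windows of all genes 12.4% hold these letters on either strand, and 1.91% hold them on the strand of the gene with the first base 25 to 40 bases before the start. The only match in the Il18 window is on the opposite strand, 175 bases before the start. The AP-1 letters TGANTCA, present in 6.75% of windows, were found 12 bases before the start of Il1a and 141 bases before the start of 1 Il1rn window. The PU.1 letters GAGGAA, present in 23.3% of windows, were found 41 bases before the start of Il1a and at 3 places of 1 Nlrp3 window. The C/EBP letters TTGCNNAA, present in 9.56% of windows, were not found in the 9 windows. These matches describe letters only.

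Il1b was by far most abundant in granule-poor neutrophils, in both libraries alike. These cells held 6440 and 7167 Il1b UMIs, a level of 12752 CPM (12442 to 13067) and 12435 CPM (12148 to 12726). More than 1 UMI in every 100 of a median cell was therefore Il1b: the median share of a cell's UMIs was 1.38% and 1.36%, at 22.5 and 23.0 Il1b UMIs per cell. Il1b was found in 99.2% (97.1 to 99.9) of 250 cells and 98.9% (96.8 to 99.8) of 275 cells, and in 97.9% and 96.2% once every cell was thinned to 1000 UMIs, a step that 9 and 12 cells were too shallow to enter. The median depth of these cells was 1588.5 and 1722.0 UMIs. Gated B cells, taken as the background of UMIs in other cell types, had a UMI in 1.51% and 2.53% of cells at a median depth of 2112.5 and 1916.0 UMIs, and in 0.584% and 0.901% after thinning. Within the granule-poor class the level varied widely between cells, from none to 5.97% and 4.605% of a cell's UMIs, with 10th and 90th percentiles of 0.404% and 2.67% in the C435A tumour library and 0.367% and 2.74% in the WT tumour library.

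Maturing neutrophils held far less. In granule-rich neutrophils, 47 and 101 cells, Il1b stood at 600.3 CPM (508 to 705) and 576.3 CPM (516 to 641), so granule-poor cells were 21.2-fold and 21.6-fold higher. The log2 difference between the classes was 4.41 (4.17 to 4.65) and 4.43 (4.27 to 4.59). A UMI was found in 23.4% and 25.7% of granule-rich cells, and the median cell had none, although these cells were deeper, with medians of 4749.0 and 4862.0 UMIs. The single highest cell held 35.6% and 20.1% of the UMIs of the class. Granule-poor and granule-rich cells are thus nearly separate in the plot of single neutrophils.

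Nlrp3, Il1r2 and Il1rn were also higher in granule-poor than in granule-rich neutrophils, each by less than Il1b. Nlrp3 was 10.3-fold and 13.1-fold higher, Il1r2 3.55-fold and 3.70-fold, and Il1rn 2.19-fold and 3.74-fold. The log2 interval of each of these 6 differences left out 0, the lowest bound being 0.51 for Il1rn in the C435A tumour library. Il1a and Il18 had at most 19 UMIs in any neutrophil class.

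Outside neutrophils the levels of Il1b were at least 24.5-fold and 28.8-fold below those of granule-poor neutrophils. Nonclassical monocytes, the vessel-patrolling monocytes, held 521 CPM (482 to 564) and 407 CPM (370 to 448), and classical monocytes, which are recruited from blood into inflamed tissue, held 260 CPM (231 to 292) and 432 CPM (400 to 466). Type 2 dendritic cells held 209 CPM and 233 CPM, mature dendritic cells 88.0 CPM and 200 CPM, and type 1 dendritic cells 41.5 CPM and 239 CPM. C1q macrophages, named for the complement C1q genes among their markers, held 147 CPM (119 to 179) and 93.8 CPM (82.1 to 107). Alveolar macrophages held 85.9 CPM (78.2 to 94.2) and 110 CPM (102 to 119). Plasmacytoid dendritic cells were lowest, with 1 and 5 UMIs. Granule-poor neutrophils came first and granule-rich neutrophils second in both libraries. In the C435A tumour library the second place was not resolved, since the interval of granule-rich neutrophils overlapped that of nonclassical monocytes. Without the top cell of each class there, these stood at 396 CPM and 454 CPM. Below the neutrophil classes most neighbours in the order had overlapping intervals, and the order itself differed between the libraries.

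Part of the monocyte signal lay in few cells that also carried neutrophil transcripts. In nonclassical monocytes 47.8% and 51.5% of the Il1b UMIs came from 8 and 9 cells with at least 10 UMIs of neutrophil markers, and without these cells the level was 284 CPM and 225 CPM. Summed neutrophil markers reached 708 CPM and 3342 CPM in nonclassical monocytes and 303 CPM and 2607 CPM in classical monocytes. In gated B cells they reached 427 CPM and 109 CPM. Without them the log2 ratio of Il1b between the C435A and WT tumour libraries was 0.34 (0.08 to 0.59) in nonclassical monocytes and -0.64 (-0.85 to -0.44) in classical monocytes.

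**Figure D1:**
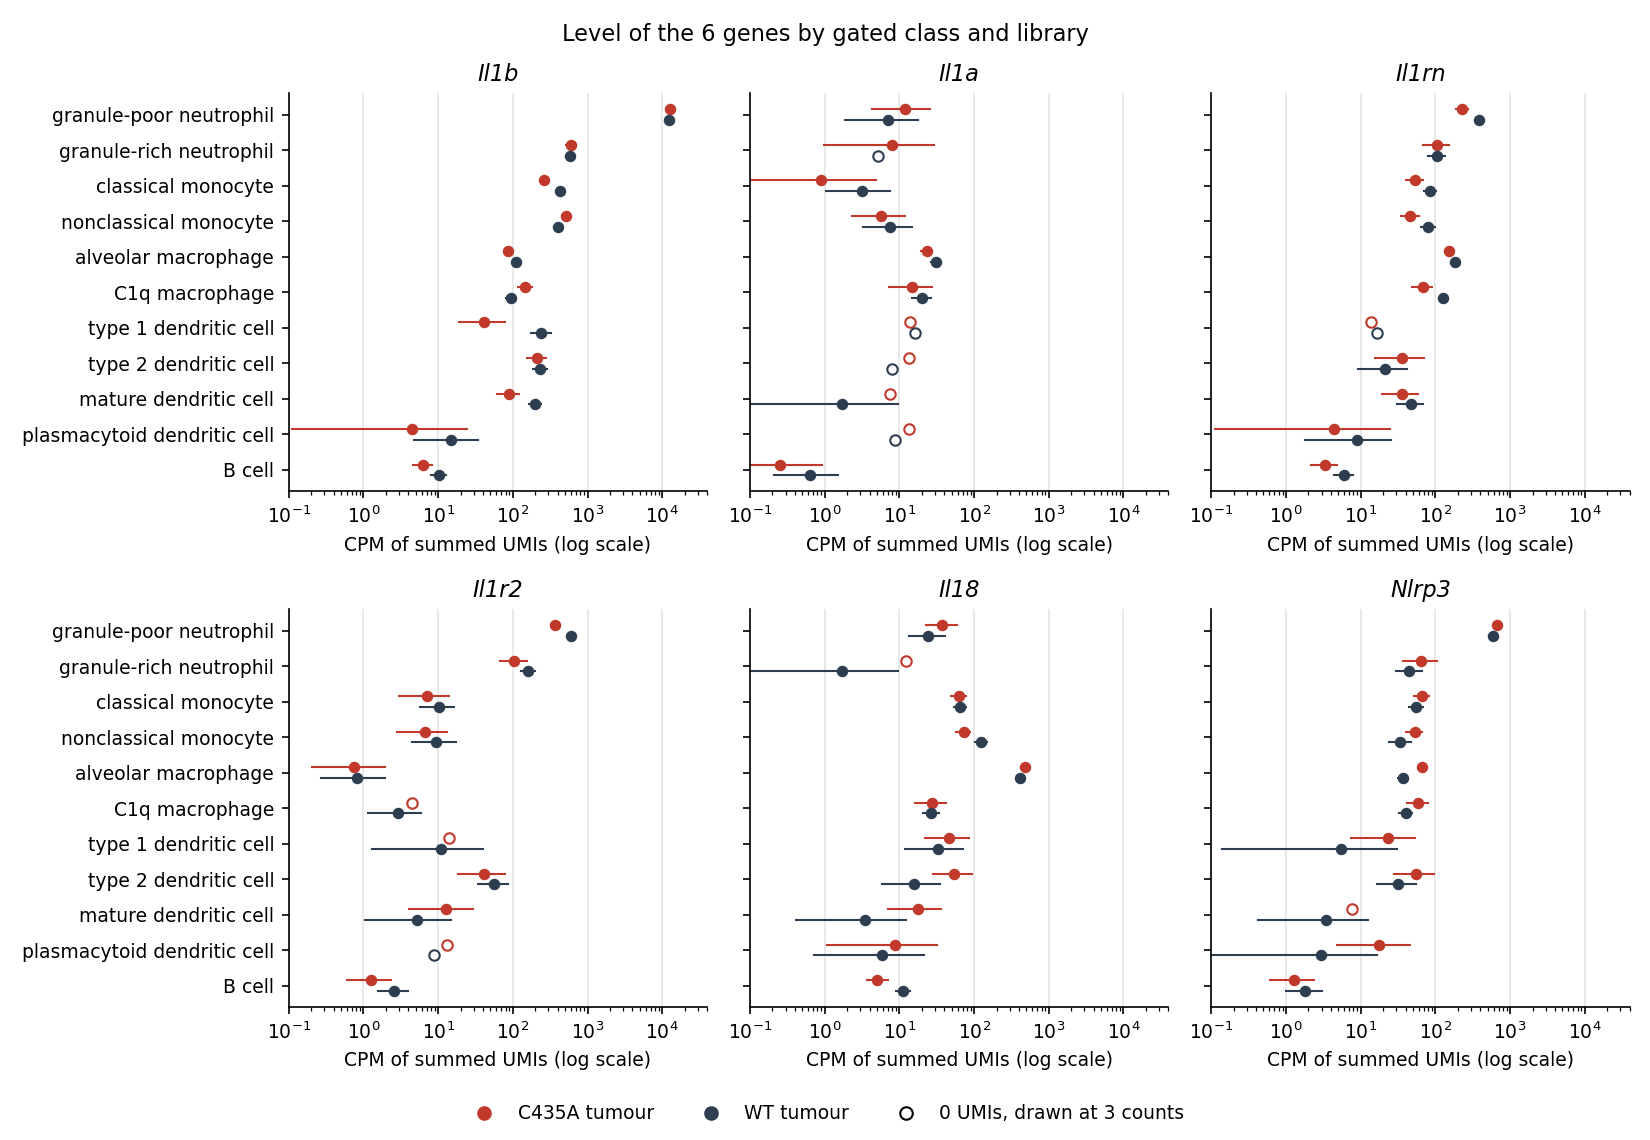
Level of each gene (x axis, CPM of summed UMIs, log scale) in the 10 gated myeloid classes and in gated B cells (rows), 1 point per library with its 95% Poisson interval. Il1b, Il1r2 and Nlrp3 were highest in granule-poor neutrophils, with Il1b at 12752 CPM and 12435 CPM, and Il18 was highest in alveolar macrophages at 478 CPM and 408 CPM.

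Il1a had its highest levels in the macrophage classes and was low everywhere. Alveolar macrophages had 123 and 189 UMIs, or 23.1 CPM (19.2 to 27.6) and 31.2 CPM (26.9 to 36.0), and C1q macrophages had 10 and 49 UMIs, or 14.97 CPM (7.18 to 27.5) and 20.1 CPM (14.9 to 26.5). A UMI was found in 13.6% and 24.0% of alveolar macrophages, but in 2.74% and 2.14% after thinning to 1000 UMIs with 7 and 4 cells left out; their median depth was 7165.0 and 11085.0 UMIs. Granule-poor neutrophils, the main holders of its neighbour Il1b, had 6 and 4 Il1a UMIs, or 11.9 CPM (4.36 to 25.9) and 6.94 CPM (1.89 to 17.8). In the C435A tumour library this interval overlapped those of both macrophage classes. Across the 4 dendritic cell classes 1 Il1a UMI was counted in all, in a mature dendritic cell of the WT tumour library. These classes held few UMIs, and a 0 there allows up to 20.1 CPM, in type 1 dendritic cells of the WT tumour library.

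Il18 was held by alveolar macrophages. Their level was 478 CPM (459 to 497) and 408 CPM (392.5 to 425), from 2541 and 2475 UMIs, with medians of 3.0 and 4.0 UMIs per cell. A UMI was found in 88.4% (85.7 to 90.7) and 88.6% (85.5 to 91.2) of these cells, and in 35.5% and 28.8% after thinning, against 0.539% and 1.201% of thinned gated B cells. Gated nonclassical monocytes followed at 72.4 CPM and 124 CPM and classical monocytes at 62.4 CPM and 65.2 CPM. In the nonclassical gate 63 of 88 and 118 of 132 Il18 UMIs lay in 15 and 19 cells that clustered with alveolar macrophages. Its cells in the cluster led by Ace, Adgre4 and Cd300e stood at 16.5 CPM and 19.7 CPM. C1q macrophages, the other macrophage class, had 26.9 CPM and 26.6 CPM. Alveolar macrophages were 17.7-fold and 15.3-fold above them. Granule-rich neutrophils had 0 and 1 Il18 UMIs, and the 0 allows up to 14.9 CPM.

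The antagonist Il1rn had its highest level in granule-poor neutrophils and its next highest in alveolar macrophages. Granule-poor neutrophils held 230 CPM (190 to 275) and 387 CPM (338 to 441), and alveolar macrophages held 155 CPM (144 to 165) and 186 CPM (175 to 197); these intervals did not overlap within a library. In the C435A tumour library 5 granule-poor cells with macrophage markers held 22.4% of the Il1rn UMIs, and without cells rich in another class's markers the intervals overlapped, at 163 to 249 CPM in granule-poor neutrophils and 145 to 167 CPM in alveolar macrophages. A UMI was found in 59.7% and 72.1% of alveolar macrophages and in 13.1% and 13.1% after thinning. Granule-rich neutrophils held 105 CPM and 104 CPM, and C1q macrophages 67.4 CPM (49.1 to 90.1) and 125 CPM (111 to 140). Type 1 dendritic cells had no Il1rn UMI in either library, which allows up to 17.0 CPM and 20.1 CPM. The largest share of all Il1rn UMIs nevertheless lay in alveolar macrophages, a class with more cells and more UMIs per cell, at 57.6% and 42.1%, against 8.1% and 8.3% in granule-poor neutrophils.

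The decoy receptor Il1r2 was a neutrophil transcript. Granule-poor cells held 372 CPM (321 to 429) and 593 CPM (532 to 660), and granule-rich cells 105 CPM (68.4 to 153) and 160 CPM (130 to 197). After thinning, 30.3% and 42.6% of granule-poor cells had a UMI. Type 2 dendritic cells were the next class, at 40.8 CPM (18.7 to 77.5) and 55.7 CPM (34.5 to 85.1). Alveolar macrophages had 4 and 5 UMIs in 663 and 517 cells, a level of 0.752 CPM and 0.825 CPM, below that of gated B cells at 1.27 CPM and 2.58 CPM. Of all Il1r2 UMIs, 54.0% and 54.8% lay in granule-poor and 7.5% and 14.9% in granule-rich neutrophils.

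Nlrp3 was highest in granule-poor neutrophils and at least 9.97-fold and 10.6-fold lower in the other classes. Granule-poor neutrophils held 663 CPM (594 to 738) and 586 CPM (526 to 652), with a UMI in 58.4% and 58.9% of cells and in 44.8% and 45.6% after thinning. Alveolar macrophages, classical monocytes, granule-rich neutrophils, C1q macrophages, type 2 dendritic cells and nonclassical monocytes all lay between 52.6 CPM and 66.5 CPM in the C435A tumour library and between 31.8 CPM and 55.1 CPM in the WT tumour library. Within each library the intervals of neighbours in this order overlapped, but in the WT tumour library classical monocytes, at 55.1 CPM (44.1 to 68.0), lay above alveolar macrophages, at 36.5 CPM (31.8 to 41.6). Mature dendritic cells had 0 and 2 UMIs, and the 0 allows up to 9.28 CPM. Gated B cells stood at 1.27 CPM and 1.81 CPM.

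Granule-poor neutrophils and alveolar macrophages were the main holders of these transcripts, as the plot of where the UMIs lay shows. Granule-poor neutrophils were 2.65% and 2.99% of the kept cells but held 69.5% and 65.1% of the 9270 and 11008 Il1b UMIs. Alveolar macrophages held 64.1% and 57.8% of Il1a and 73.0% and 70.4% of Il18. Nlrp3 was shared, with 30.2% and 33.6% in granule-poor neutrophils and 31.9% and 21.9% in alveolar macrophages. The 10 myeloid gates together held between 71.3% and 88.7% of the UMIs of a gene. For Il1rn and Nlrp3 the share of C1q macrophages was higher in the WT tumour library, at 11.4% against 3.2% and at 9.7% against 3.5%, where that gate also held 174 cells against 76.

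**Figure D2:**
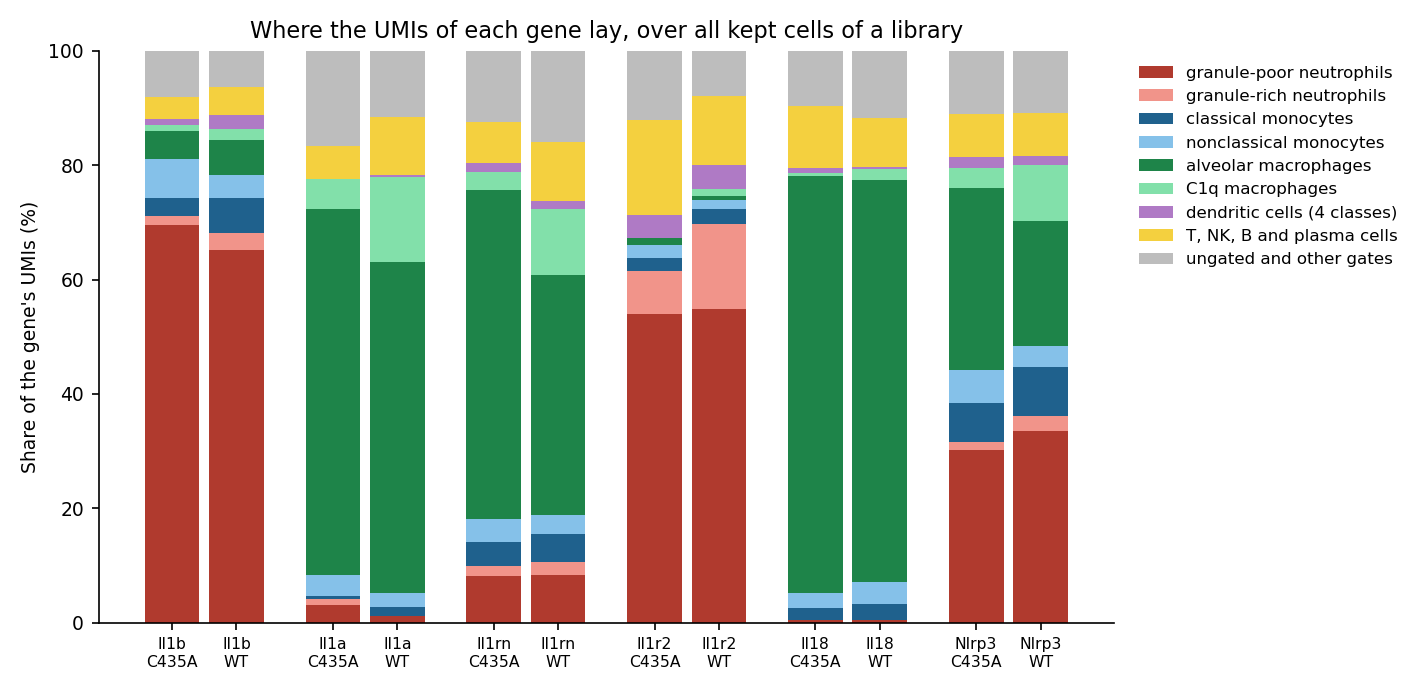
Share of each gene's UMIs over all kept cells (y axis, percent) that lay in each gate, as stacked bars with 1 bar per gene and library. Granule-poor neutrophils hold 69.5% and 65.1% of Il1b, alveolar macrophages hold 73.0% and 70.4% of Il18, and Nlrp3 is divided between both.

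The amount of antagonist transcript per unit of Il1b transcript differed between classes by around 2 orders of magnitude. Granule-poor neutrophils had 1.80 (1.49 to 2.16) and 3.11 (2.71 to 3.56) Il1rn UMIs per 100 Il1b UMIs. Classical monocytes had 20.3 and 19.6, and nonclassical monocytes 8.83 (6.60 to 11.6) and 19.6 (15.4 to 24.8). Alveolar macrophages had 180 (160 to 202) and 169 (153 to 186), more antagonist than cytokine transcript by UMI number. C1q macrophages stood at 45.9 (31.5 to 66.0) and 133 (112 to 159). These ratios count 3′ UMIs, which are not scaled by transcript length and may be captured unequally between genes, so they are compared here between classes only.

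The second question of the design is whether these levels differed between the C435A and WT tumour libraries. Of 60 pairs of gene and myeloid class, 34 had at least 20 UMIs over both libraries. A pair was called when its CPM differed by more than 1.5-fold and the exact 95% interval of the log2 ratio left out 0. By this rule 3 pairs were higher in the C435A tumour library, 9 were lower and 22 were not called. Of all genes with 20 UMIs in a class, between 5.15% and 14.2% were called in either direction, depending on the class. In the classes with a lower call 3.61% to 7.92% of genes were called lower. In those with a higher call 6.24% to 7.36% were called higher. The calls describe these libraries with counting error only, and a pair that was not called is not shown to be equal. Beyond the myeloid classes, gated B cells also held less Il1b, Il1rn and Il18 in the C435A tumour library, with log2 ratios of -0.71, -0.84 and -1.12, at B cell levels of at most 11.1 CPM. Gated T cells, again at low levels, had log2 ratios of -1.42 for Il1b and -2.41 for Il1rn. The part of such background UMIs in the results on the myeloid classes was not tested.

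**Figure D3:**
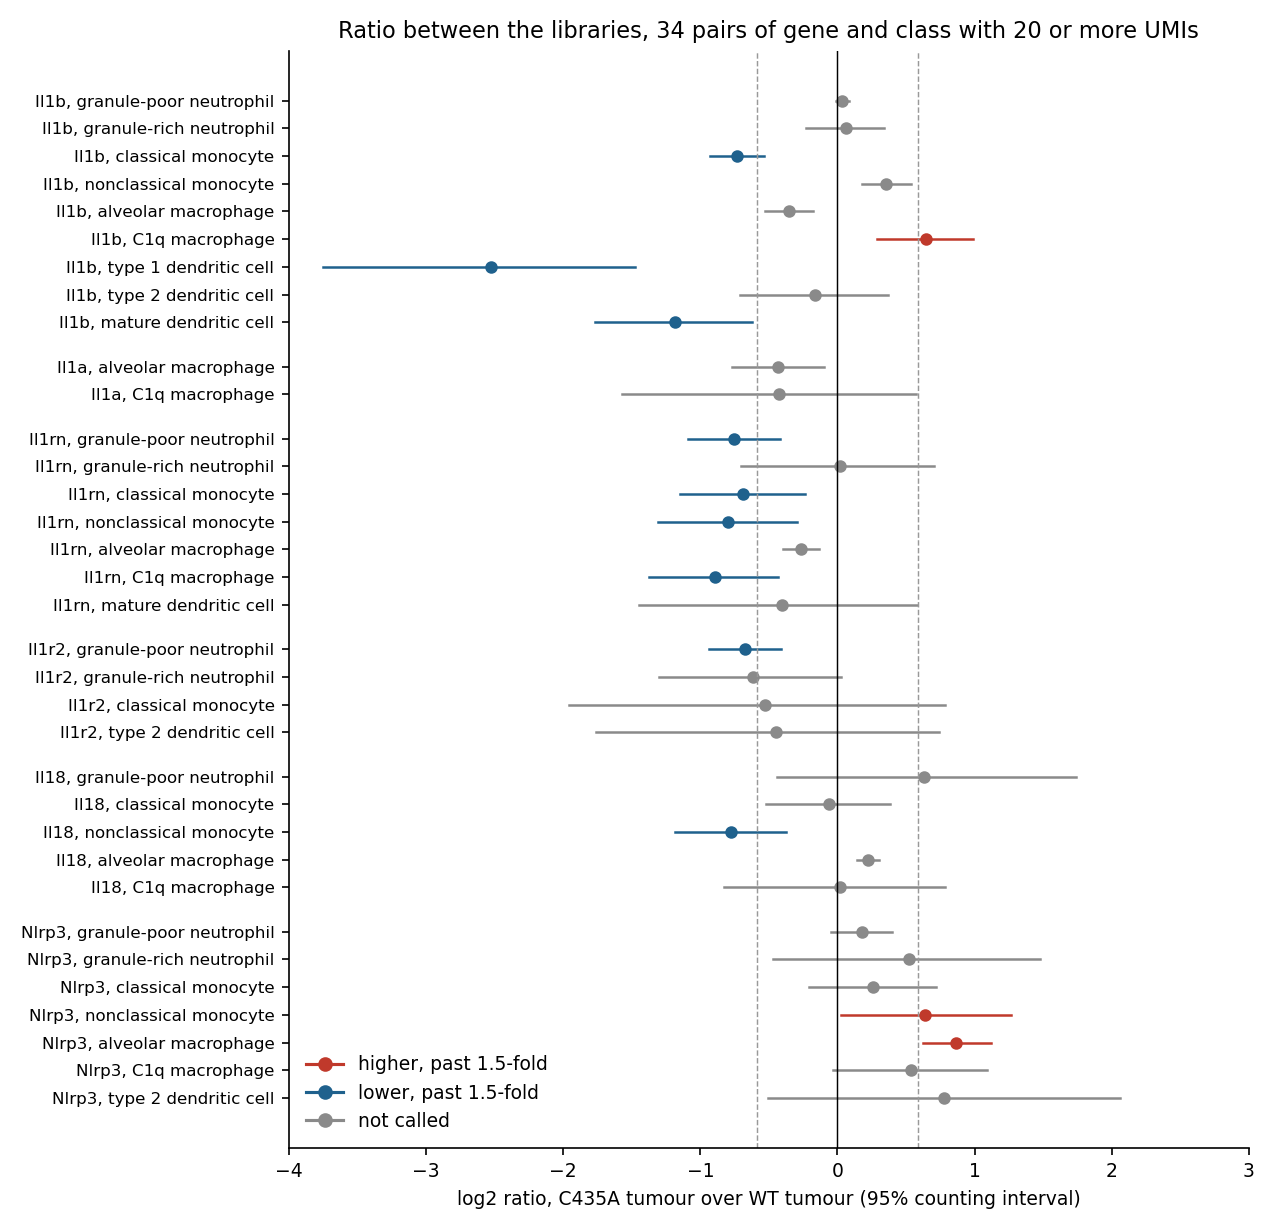
log2 ratio of CPM, C435A tumour over WT tumour library (x axis), with its 95% counting interval, for the 34 pairs of gene and gated class with 20 or more UMIs (rows). Il1rn was called lower in 4 classes, Nlrp3 was called higher in 2, and Il1b lay at 0.04 in granule-poor neutrophils but was called lower in 3 classes and higher in 1.

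In granule-poor neutrophils the cytokine and sensor transcripts were at similar levels in both libraries while both inhibitors were lower in the C435A tumour library. The log2 ratio of Il1b was 0.04 (-0.01 to 0.09), and that of Nlrp3 was 0.18 (-0.05 to 0.40). Il1rn, at 116 and 223 UMIs, had a log2 ratio of -0.75 (-1.09 to -0.42). Il1r2, at 188 and 342 UMIs, had a log2 ratio of -0.67 (-0.94 to -0.41). So 2 of 5 measured genes were called, both lower, where 8.81% of all 5131 genes with 20 UMIs in this class were called in either direction and 3.86% were called lower. In the neutrophil cluster that held 97.2% and 97.8% of the class, led by G0s2, Cxcl2 and Csf3r, the ratio of Il1rn was -1.08 (-1.45 to -0.72) and that of Il1r2 -0.69 (-0.95 to -0.42). The share of thinned cells with Il1rn was 15.4% (11.05 to 20.5) and 27.8% (22.4 to 33.6). Markers of other cells also differed in these gates: Spp1, a macrophage and tumour transcript, stood at 79.2 CPM and 3961 CPM, and the 8 C1q macrophage markers summed to 115 CPM and 907 CPM. Without 5 and 3 cells with at least 10 UMIs of macrophage markers, Il1rn stood at 203 CPM and 416 CPM, a log2 ratio of -1.04 (-1.41 to -0.68).

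Granule-rich neutrophils gave no call among 4 measured genes, where 5.15% of genes were called. Il1b was at 0.06 (-0.23 to 0.34) and Il1r2 at -0.62 (-1.30 to 0.03). In the cluster led by Camp, Ngp and Lcn2 that held 91.5% and 97.0% of the class, Il1b stood at 357 CPM and 570 CPM. Its ratio in that cluster was -0.67 (-1.04 to -0.32), which passed the call rule as lower in the C435A tumour library. Taken as 1 class, neutrophils had 8748 CPM and 6489 CPM of Il1b, a log2 ratio of 0.43 (0.38 to 0.48), and 466 CPM and 315 CPM of Nlrp3, a ratio of 0.57 (0.35 to 0.78). Granule-rich cells were 15.8% (11.9 to 20.5) and 26.9% (22.4 to 31.6) of the neutrophils, and neither granule class as gated gave a call for Il1b or Nlrp3.

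In classical monocytes Il1b and Il1rn were called lower in the C435A tumour library, 2 of 5 measured genes where 6.43% of genes were called and 4.11% were called lower. Il1b stood at 260 CPM and 432 CPM, a log2 ratio of -0.73 (-0.93 to -0.53), and Il1rn at 52.7 CPM and 84.9 CPM, a ratio of -0.69 (-1.15 to -0.24). One cell of the WT tumour library held 163 Il1b UMIs, 23.9% of the class, and without the top cell of each library the ratio was -0.50 (-0.72 to -0.29), a fold under the threshold of 1.5. The cluster led by F13a1, Ifitm3 and Ccr2 that held 83.1% and 79.8% of the class had 243 CPM and 248 CPM of Il1b, a ratio of -0.03 (-0.30 to 0.23), and 21.5 CPM and 19.1 CPM of Il1rn. In 28 and 29 gated cells that fell in a cluster led by C1qa, C1qb and C1qc, Il1b stood at 374 CPM and 825 CPM. Il18 and Nlrp3 had ratios of -0.06 (-0.52 to 0.39) and 0.26 (-0.21 to 0.72). Of 8 genes induced by tissue handling, 3 were called higher in this class and none lower.

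Nonclassical monocytes gave 3 calls among 4 measured genes, 1 higher and 2 lower, where 14.2% of genes were called, 6.24% higher and 7.92% lower. Il1rn, at 46.0 CPM and 79.9 CPM, had a log2 ratio of -0.80 (-1.31 to -0.29). Il18 had a ratio of -0.78 (-1.18 to -0.38). Nlrp3, at 52.6 CPM and 33.9 CPM, had a ratio of 0.64 (0.03 to 1.27), and without cells that carried neutrophil markers its interval reached 0, at 0.71 (-0.01 to 1.46). With the class taken from clusters in place of the gate, the Nlrp3 ratio was 0.016 and that of Il1rn reversed to 1.06. Without cells that carried neutrophil markers Il1rn and Il18 had ratios of -0.72 and -0.61. The calls of Il1rn and Il18 moved with the clusters in the gate. The cluster led by Ace, Adgre4 and Cd300e, marker genes of the class, held 72.8% and 52.5% of its cells and had 21 and 3 UMIs of Il1rn, a ratio of 1.29 (-0.45 to 3.68), and 12 and 5 of Il18. A cluster led by the alveolar macrophage genes Ctsk, Marco and Lpl held 15 and 19 of the gated cells, and these had 63 of the 88 and 118 of the 132 Il18 UMIs of the gate. Il18 within that cluster stood at 383 CPM and 357 CPM. The Il1b ratio of the gate was 0.36 (0.18 to 0.54), under the 1.5-fold threshold.

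In alveolar macrophages Nlrp3 was called higher in the C435A tumour library, 1 of 5 measured genes where 10.7% of genes were called and 7.36% were called higher. There were 354 and 221 UMIs, or 66.5 CPM (59.8 to 73.9) and 36.5 CPM (31.8 to 41.6), a log2 ratio of 0.87 (0.62 to 1.12). The thinned share of cells with Nlrp3 was 5.79% (4.13 to 7.86) and 4.09% (2.55 to 6.19), intervals that overlapped. The libraries differed in the make-up of this gate: the cluster led by Ear1, Fabp1 and Car4 held 72.1% and 32.5% of the cells, and that led by Ctsk, Marco and Lpl held 27.6% and 66.3%. Nlrp3 stood at 77.5 CPM and 57.9 CPM in the first, a ratio of 0.42 (0.08 to 0.77), and at 46.8 CPM and 28.3 CPM in the second, a ratio of 0.72 (0.31 to 1.13). Il18 had a ratio of 0.23 (0.15 to 0.31) in the gate and of 0.03 in either cluster, at 535 CPM and 524 CPM in the first and 376 CPM and 369 CPM in the second. Il1b was at -0.36 (-0.53 to -0.18) in the gate, at -1.01 (-1.25 to -0.76) in the first cluster and at 0.05 (-0.22 to 0.31) in the second. One cell of the C435A tumour library held 100 Il1b UMIs, 21.9% of its class, and without the top cell of each library Il1b passed the call rule at -0.61 (-0.80 to -0.42). Il1a and Il1rn had ratios of -0.43 (-0.77 to -0.10) and -0.27 (-0.40 to -0.13), both under the threshold. The median ratio of all genes in this class was 0.12, and genes induced by tissue handling were also higher, with 4 of 8 called higher and Fos, Egr1, Dusp1 and Junb at 0.91, 1.30, 0.77 and 0.61. Their part in the Nlrp3 result was not tested.

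C1q macrophages held more Il1b and less Il1rn in the C435A tumour library, 2 of 5 measured genes called where 10.6% of genes were called, 7.01% higher and 3.61% lower. Il1b, at 98 and 229 UMIs, had a log2 ratio of 0.64 (0.29 to 0.99), and Il1rn, at 45 and 305 UMIs, had a ratio of -0.89 (-1.38 to -0.44). Il1rn was found in 22.4% (13.6 to 33.4) of 76 cells and 50.6% (42.9 to 58.2) of 174 cells, and after thinning in 5.48% (1.51 to 13.4) and 13.2% (8.57 to 19.2), intervals that overlapped. Nlrp3, at 58.4 CPM and 40.2 CPM, had a ratio of 0.54 (-0.03 to 1.09) and was not called. The summed neutrophil markers of this gate were 862 CPM and 181 CPM. Spp1 was 5400.2 CPM and 16158 CPM, and Arg1 was 222 CPM and 766 CPM. The gate was not split by these 2 genes, so it may pool more than 1 macrophage type. Without the cells rich in neutrophil markers the Il1b ratio was 0.61, and Nlrp3 passed the call rule at 0.67 (0.09 to 1.23). Without cells that had T or B cell UMIs the Il1b ratio was 0.20, no longer past 1.5-fold, and with the class taken from clusters it reversed to -0.23. Handling genes were higher in this class too, with 5 of 8 called higher and a median log2 ratio of 0.75.

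**Figure D4:**
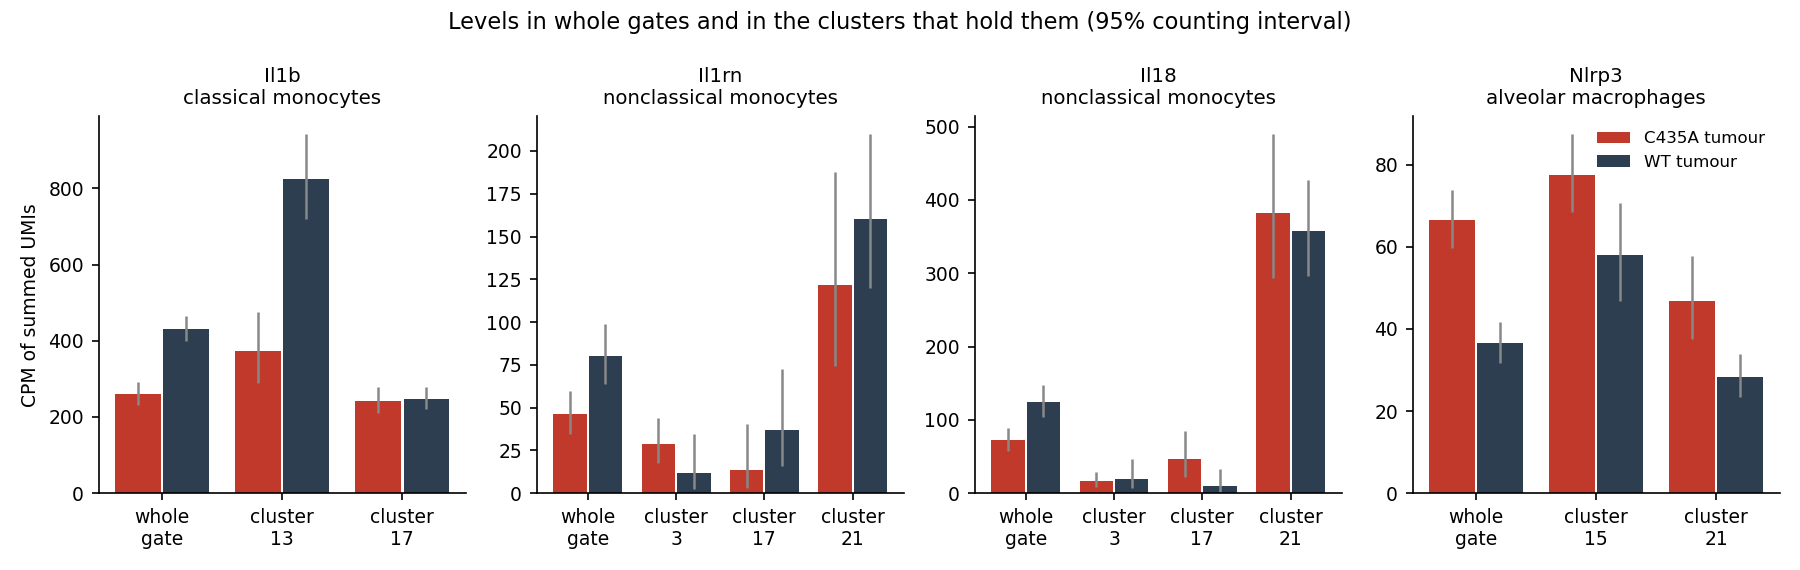
CPM of summed UMIs with 95% Poisson intervals (y axis) for 4 pairs of gene and class, in the whole gate and in each cluster that holds at least 15 of its cells in both libraries (x axis). Il1b in classical monocytes stands at 260 CPM and 432 CPM in the gate but at 243 CPM and 248 CPM in the cluster that holds most of it, whereas Nlrp3 in alveolar macrophages is higher in the C435A tumour library in both clusters.

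Dendritic cell gates were small, and 2 Il1b pairs were called lower in the C435A tumour library. In mature dendritic cells, the migratory state that carries antigen to lymph nodes, Il1b stood at 35 and 116 UMIs in 58 and 74 cells, a log2 ratio of -1.18 (-1.77 to -0.63), and 9.44% of genes were called in this class, 3.68% lower. It was 1 of 2 measured genes, and thinned shares of cells with Il1b were 5.66% and 12.7%. With cells weighted alike the ratio was -0.46, no longer past 1.5-fold. In type 1 dendritic cells, the cross-presenting type, Il1b was the only gene measured, where 12.5% of genes were called and 5.77% were called lower. Its ratio was -2.53 (-3.75 to -1.48), but 38 of the 44 UMIs of the WT tumour library came from 1 cell, and without the top cell of each library the ratio was -0.56 (-2.61 to 1.41). None of 3 measured genes was called in type 2 dendritic cells, where 11.9% of genes were called. No gene reached 20 UMIs in plasmacytoid dendritic cells, where 6.59% of genes were called.

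Over all kept cells of a library, where the number of cells of each class enters, the differences were larger for the inhibitors and for Il1a. Il1b was at 184 CPM and 237 CPM, a log2 ratio of -0.36 (-0.40 to -0.32), although it was at 0.04 in the class that held most of it. Il1rn had a ratio of -1.02 (-1.11 to -0.92), Il1r2 of -0.95 (-1.15 to -0.76) and Il1a of -0.88 (-1.14 to -0.62). Il18 had a ratio of -0.13 (-0.20 to -0.06) and Nlrp3 of 0.03 (-0.09 to 0.15). In such totals, fewer cells of a class, fewer transcripts per cell and more UMIs from other cells cannot be told apart. Gated T cells alone held 21539411 and 13493819 UMIs in 3879 and 3801 cells.

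The other genes of the pathway gave these 6 a context. The lists were 18 inflammasome components, 14 genes of IL-1 receptor signalling, 15 inflammatory genes induced through NF-kB, 7 receptors and 7 further ligands and inhibitors. In granule-poor neutrophils 8.81% of all genes were called in either direction and 3.86% were called lower. Of the inflammasome genes 11 were measured there and none was called, with a median log2 ratio of 0.07 beside 0.04 for all genes. Casp1, the protease that cuts the precursors, stood at 24 CPM and 33 CPM there, and Gsdmd, whose product forms the exit pore, at 79 CPM and 90 CPM. Among 13 NF-kB genes in these cells 1 was called higher and 1 lower. Sod2, the mitochondrial superoxide dismutase, stood at 141 CPM and 88.5 CPM. Of its 71 UMIs in the C435A tumour library 23 lay in 1 cell, and the Sod2 call was not tested without that cell. The chemokine Cxcl3 had 0 and 43 UMIs, of which 14 lay in 1 cell. Among 13 receptor signalling genes Tnfaip3, which encodes the NF-kB inhibitor A20, was called lower at 190 CPM and 378 CPM, a ratio of -0.99. Il36g, another cytokine of the family, stood at 180 CPM and 260 CPM in granule-poor and 68 CPM and 78 CPM in granule-rich neutrophils.

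Il1r1 was rare in the myeloid classes, whereas the interleukin-18 receptor chains were high in NK cells. Il1r1, the signalling receptor of interleukin-1, had at most 10 UMIs in any library of 8 of the 10 myeloid classes. The exceptions were type 2 dendritic cells, with 21 and 4 UMIs, and nonclassical monocytes, with 1 and 52 UMIs, of which 51 lay in 1 cell. Il1rap, its partner chain, stood at 143 CPM and 134 CPM in granule-poor neutrophils and at most at 23.8 CPM in both monocyte and both macrophage classes. The chains of the interleukin-18 receptor were high in gated NK cells, where Il18r1 stood at 277 CPM and 290 CPM and Il18rap at 519 CPM and 532 CPM. Granule-poor neutrophils had 182 CPM and 156 CPM of Il18rap.

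In the other myeloid classes the number of calls in the pathway lists differed. In classical monocytes 1 of 16 inflammasome genes was called, Mefv, the pyrin sensor, which was lower at 30.8 CPM and 48.8 CPM. Of all genes in that class 6.43% were called in either direction and 4.11% were called lower. In nonclassical monocytes 3 of 16 inflammasome genes and 5 of 14 receptor signalling genes were called higher and none lower, where 6.24% of all genes in the class were called higher and 7.92% lower, with medians of 0.24 and 0.43 beside 0.04 for all genes. They included Nek7, the kinase that binds NLRP3, at 104 CPM and 64.0 CPM, and the NF-kB inhibitor Nfkbia at 727 CPM and 474 CPM. The cluster make-up of this gate and of the alveolar macrophage gate differed between the libraries, as given above. The list calls were not tested within clusters. In alveolar macrophages 2 of 16 inflammasome genes were called higher, where 7.36% of all genes in the class were called higher. Txnip, a redox protein that binds NLRP3, was 1 of them and stood at 595 CPM and 335 CPM. The chemokine Cxcl2 stood at 201 CPM and 111 CPM in these cells, and Clec4e, a receptor for fungal and dead-cell ligands, at 48.7 CPM and 103 CPM. In C1q macrophages Nfkbia stood at 479 CPM and 252 CPM and Cxcl2 at 733 CPM and 350 CPM, while the chemokine Cxcl1 had 0 and 63 UMIs, of which 47 lay in 1 cell. In granule-rich neutrophils 4 of 9 NF-kB genes were called higher and 1 lower, where 5.15% of all genes in the class were called in either direction. The highest ratio was that of the chemokine Ccl4, but 47 of its 73 UMIs in the C435A tumour library lay in 1 cell. For the other higher calls the top cell of that library held 37 of 62 Ccl3, 11 of 28 Tnf and 47 of 280 Cxcl2 UMIs. For the lower call, Ptgs2, 1 cell of the WT tumour library held 19 of 47 UMIs. These calls were not tested without such cells. In mature dendritic cells 1 of 9 inflammasome genes was called, where 9.44% of all genes in the class were called in either direction. It was Pycard, the adaptor that joins sensor and caspase, which was higher at 163 CPM and 87.9 CPM. The median of that list was 0.55 beside 0.02 for all genes.

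The genes whose levels followed each of the 6 most closely were found by the Pearson correlation of log2(CPM + 1) over 25 points, each a gated class of 1 library with at least 50 cells. The points share libraries, classes and depth, so the values are a description with no p. Il1b lay nearest to Trpm2, an ion channel, at 0.945, followed by the neutrophil marker Csf3r at 0.944 and Cxcl2 at 0.941. Il1r2 lay nearest to Rnd1 at 0.925 and Il36g at 0.924. Il1rn lay nearest to Gda at 0.967 and Nlrp3 to Siglece, an inhibitory sialic acid receptor, at 0.962. Il1a lay nearest to Mertk, a receptor for the uptake of dead cells, at 0.933, and Il18 to Slc9a4 at 0.896, with Pparg, a regulator of alveolar macrophages, also among its 5 nearest at 0.862. Between the members the correlation was highest for Il1b and Il1rn at 0.897 and for Il1b and Nlrp3 at 0.866. It was lowest for Il1r2 and Il18 at 0.066, the neutrophil and the alveolar macrophage transcript.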

How the data were processed

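The authors deposited 1 matrix of UMI counts per library, aligned to GRCm38 with Cell Ranger per the submitters' processing notes and in version 7.2.0 per the file headers. The labels' protocols name both BD Rhapsody capture and the 10x 3′ kit, so the platform is uncertain. The annotation release and the intron and strand settings are not stated in the sources used. Barcodes needed a minimum of 200 genes and 500 UMIs and a mitochondrial share under 20%, and the highest doublet scores were removed at 0.8% per 1000 barcodes. This left 9427 of 10373 and 9199 of 10156 cells. A cell went to the gate with the most of its 8 markers detected, with a minimum of 3. UMIs were summed per class and library and divided by the class total (CPM). Intervals are exact and cover counting error only. Log2 ratios use an exact conditional interval. A count of 0 was set to 3 counts per class and library, and no fold was given with both at or under 3. Cells were thinned to 1000 UMIs for shares. Clusters (scanpy 1.11.5, Leiden, 2000 variable genes without the 6 genes, 30 components) served to look inside the gates. Scripts were tested on simulated data. The 6 genes, the markers and the lists were chosen with earlier results of these data known. Named genes of the lists were the called ones, at most 4 per list and class, and the nearest genes were the 5 with the highest correlation. TMM scaling used edgeR 4.0.16. Alternatives and their effect are given at the end.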

Additional observations from a re-analysis of the deposited data

Results flagged for a closer look

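Il1b ratios between the libraries had opposite signs in different gated classes, and each of the called ones below lost its call or its sign under an alternative. Its log2 ratio, C435A tumour over WT tumour library, was 0.64 in C1q macrophages but -0.73 in classical monocytes, -2.53 in type 1 dendritic cells and -1.18 in mature dendritic cells. The value in C1q macrophages was -0.23 with classes taken from clusters and 0.20 without cells with T or B cell UMIs. That in classical monocytes was -0.03 in the largest cluster, that in type 1 dendritic cells was -0.56 (-2.61 to 1.41) without the top cell of each library, and that in mature dendritic cells was -0.46 with cells weighted alike. With 1 library per group the difference between the classes was not tested.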

How the results depend on the processing

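Alternatives were recomputed for the 34 measured ratios. The first 8 were planned, and the last 2 (only the largest cluster of a gate, and leaving out cells with 10 or more UMIs of another class's markers) were added after seeing the data. Removing cells with 10% or more mitochondrial UMIs left all 34 within their main counting interval. The same held for 33 of 34 with a gate minimum of 4 markers, with TMM scaling and without cells rich in another class's markers, 32 without cells with T or B cell UMIs, 30 without the top cell, 29 with doublets kept and 26 with cells weighted alike. Classes taken from clusters kept 22 of the 30 ratios they could give, and the largest cluster alone kept 23 of 34. Il1b in granule-poor neutrophils moved from 0.04 to -0.086 with clusters, 0.18 with doublets kept and -0.072 without cells with T or B cell UMIs, always under the threshold. Its level there was 15238 CPM and 15069 CPM with cells weighted alike, and 12772 CPM in the WT tumour library with 4 markers. In granule-rich neutrophils Il1b came to -0.67 and Nlrp3 to -1.10 (-2.84 to 0.30) in the largest cluster. Il1b in classical monocytes came to -0.10 with clusters, -0.46 with cells weighted alike, -0.50 without the top cell and -0.032 in the largest cluster, where Il1rn reversed to 0.17. In nonclassical monocytes Il1rn reversed to 1.06 with clusters, 0.13 with cells weighted alike and 1.29 in the largest cluster, Il18 came to -0.25 in the largest cluster and Nlrp3 to 0.016 with clusters. In alveolar macrophages Il18 came to 0.10 with TMM scaling and 0.032 in the largest cluster, and Nlrp3 to 0.42 in the largest cluster. In C1q macrophages Il1b reversed to -0.23 with clusters and came to 0.20 without cells with T or B cell UMIs, and Il1rn came to -1.56 with cells weighted alike. Il1b came to -0.56 in type 1 dendritic cells without the top cell, and in mature dendritic cells to -1.90 with clusters and -0.46 with cells weighted alike. Where the alternative itself does not show it, the cause was not tested. TMM scaling moved the ratios of alveolar macrophages by -0.12 and of C1q macrophages by -0.13. No paired analysis was possible because each group has 1 library and the result comes from no test. Depth limits pairs under 20 UMIs, among them all Il1a pairs of the myeloid classes outside macrophages.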

Other observations

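Outside the myeloid gates, plasma cells held Il18 UMIs, a pair chosen after its values were seen. They had 178 and 34 UMIs in 251 and 168 cells, or 45.2 CPM (38.8 to 52.4) and 10.9 CPM (7.52 to 15.2), a log2 ratio of 2.06 (1.52 to 2.63). The share of plasma cells with an Il18 UMI was 34.3% (28.4 to 40.5) and 14.3% (9.37 to 20.5), and after thinning to 1000 UMIs it was 2.44% and 1.21%, against 0.539% and 1.201% in gated B cells. Pycard, the inflammasome adaptor, stood at 1600 CPM and 737 CPM in the same plasma cells.

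UMIs of all 6 genes were counted in gated T cells at low levels. Transcripts of other cell types also differed in this gate. Lyz2 stood at 465 CPM and 2161 CPM, Spp1 at 55.7 CPM and 440 CPM, and summed alveolar macrophage markers at 155 CPM and 434 CPM. The part of RNA from other cells in the T cell ratios was not tested. Il1rn had a log2 ratio of -2.41 (-2.83 to -2.01) and Il1a of -2.67 (-4.11 to -1.45). Il1b, at 12.7 CPM and 33.9 CPM, was found in 3.17% and 3.29% of T cells without thinning. The median depth of these cells was 3825.0 and 2850.0 UMIs, so these shares are not compared at equal depth. In the WT tumour library 1 T cell held 21.9% of the Il1b UMIs of the class.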
